A study of Drosophila melanogaster with 4 samples.

Results

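The genes described here are the CG-numbered genes of Drosophila melanogaster that read higher in the fat body of larvae fed palm fruit juice (PFJ). A CG number is the placeholder name that a predicted fly gene carries until it is given a name of its own. A gene was taken when its only symbol in the array's annotation was a CG number and its lower PFJ value exceeded its higher control value by at least 0.5 on the log2 scale. That distance is called the gap below. The rule also left out any gene that was 2 or more lower in control replicate 2 than in each other array. This clause removed 0 genes that passed the gap, although 74 CG-numbered genes had such a drop. The genes were therefore chosen by their PFJ and control intensities, the values described below. The rule found 72 genes among 5733 CG-numbered genes and 13402 genes in all.

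Larvae of w1118, a white-eyed laboratory strain, were raised from the egg for 5 days on a semi-purified diet. Controls ate that diet alone, and the PFJ group ate it with the juice at a phenolic content of 19000 mg, counted as gallic acid equivalents, per kg of food. Each group had 2 arrays, and the RNA on each array came from the pooled fat bodies of 10 larvae. The values are RMA log2 intensities from Affymetrix arrays, so a difference of 1 is a 2-fold difference in signal. Of 7 fat body markers, Lsp2, Fbp1, Fbp2, apolpp and Obp99b read above 9 on all arrays, while AkhR, the adipokinetic hormone receptor gene, read 3.92 to 4.37. Lsp2 read 12.27 and 12.32 in controls against 12.22 and 12.24 with PFJ, and Obp99b read 10.37 and 9.93 against 11.63 and 11.19. The markers' median difference was 0.33, with groups separated and PFJ higher in 5 and lower in 1, against 15.5% and 13.1% of all genes. Control replicate 2 stood apart, with 118 genes at least 2 lower than on each other array. Without it the median difference of the set was 1.07, against 1.13 with it. The rule holds each difference at 0.5 or more in both cases. These medians therefore cannot show how far the set rests on that array.

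The fat body is the insect counterpart of liver and adipose tissue, and it stores fat and glycogen and secretes proteins into the hemolymph. Many of those secreted proteins are small protease inhibitors and serine proteases or their inactive homologs, which act in clotting, melanization and immune defence. The organ also expresses reductases and dehydrogenases that handle sugars, steroids, retinoids and plant-derived compounds. Many CG-numbered genes have no described function, and 39 of the 72 genes are given no role here.

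Since the PFJ and control values chose the genes, their differences are a description and carry no test. By the same gap, 1.01% of all genes were higher with PFJ (135 genes), 1.26% of CG-numbered genes and 0.821% of genes with other names. In the opposite direction 0.41% of all genes and 0.401% of CG-numbered genes passed it, the latter 23 genes. Limma's test over all 13402 genes called 0 genes at an adjusted p under 0.05, or 0%, and 373 genes at an unadjusted p under 0.05, or 2.78%. None of the 72 genes therefore passed the adjusted test. RNA per cell and the share of a cell type in the pool cannot be told apart in such samples.

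Differences among the 72 genes ran from 0.56 to 4.33, with a median of 1.13, against a median of 0.04 over all CG-numbered genes and 0.01 over all genes. In 47 of them the mean difference was at least 1 and in 4 it was at least 2. The gap itself had a median of 0.73 and reached 1 in 16 genes. Just inside the threshold lay CG33127, CG18666 and CG1774, with gaps of 0.507, 0.508 and 0.513. Just outside it lay CG30414, CG43071 and CG43208, with gaps of 0.497, 0.486 and 0.478. The genes at the threshold were therefore split by amounts smaller than the gap between the control arrays of a typical CG-numbered gene, whose median was 0.28.

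**Figure D1:**
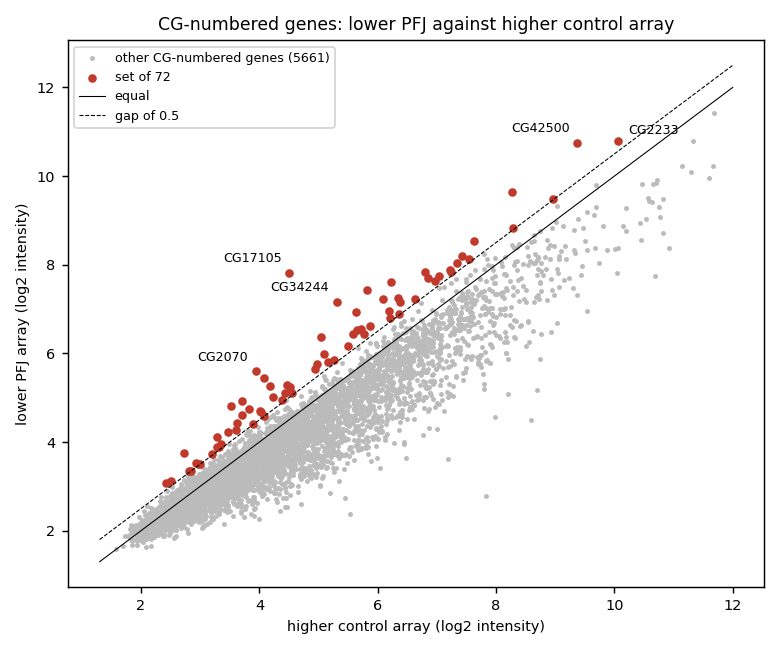
Each point is 1 CG-numbered gene, with its higher control array on the x axis and its lower PFJ array on the y axis, both in log2 intensity. The 72 genes, in red, lie on or above the dashed line at a gap of 0.5, and CG17105 lies farthest from it.

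The gene with the widest gap was CG17105, for which no role is given here. It read 4.50 and 3.20 in the control arrays, replicate 1 first as throughout, against 7.82 and 8.53 with PFJ. The control arrays lay on either side of the median level of all genes, which was 4.00, and the gap of 3.32 exceeded the spread within either group. The means were 3.85 ± 0.92 and 8.18 ± 0.50 (SD, n = 2 each). The size of the difference is uncertain, since no detection call against background was made and 1 control array read under 4. Second by gap came CG34244, at 5.30 and 4.89 in controls against 7.21 and 7.17 with PFJ. Its PFJ arrays were 0.04 apart and its mean difference was 2.09 (SE 0.22).

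Several genes without a given role were bright in the fat body pools. CG2233 had the highest mean level of the set, 10.38, and read 9.86 and 10.05 in controls against 10.82 and 10.79 with PFJ. CG42500 read 9.08 and 9.37 in controls against 10.74 and 10.95 with PFJ, a 3.07-fold difference. For CG16926 the controls read 8.03 and 8.28, and the PFJ arrays 9.64 and 9.65. These 3 genes had groups well apart and little spread within them. CG34227, the third brightest, was less even, at 8.96 and 7.79 in controls against 10.06 and 9.48. CG32249 lay in the middle of the range at 6.22 and 6.06 against 7.61 and 8.05. CG5773 was higher by 1.34 (SE 0.23), and CG33493, CG13606, CG13962 and CG8369 by 1.10 to 1.24.

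**Figure D2:**
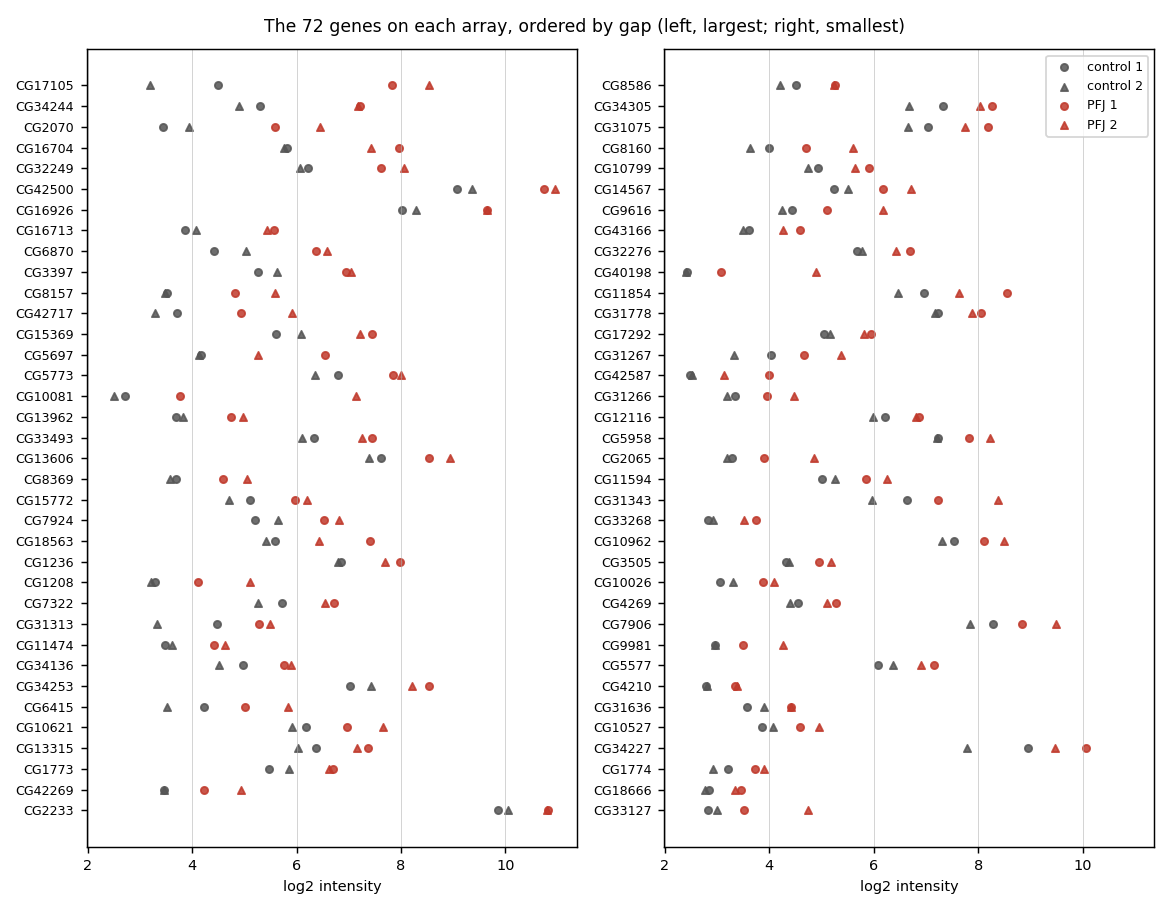
Each row is 1 of the 72 genes and each point 1 array, with log2 intensity on the x axis, controls in grey and PFJ in red, circles for replicate 1 and triangles for replicate 2. Rows run from the widest gap, CG17105, at the top left to the narrowest, CG33127, at the bottom right, and in every row the red points lie to the right of the grey ones, as the rule requires.

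A protease inhibitor-like role was assigned to 5 genes of the set, with differences between 1.49 and 1.92. Genes given no role may still be of this kind. The roles named here and in what follows were assigned to the genes after their values were seen, from background knowledge. Only genes of the set were given roles, so the sizes of the role groups have no share over all genes beside them. Kunitz-type inhibitors are small disulfide-bonded proteins that block serine proteases. The Kunitz-type gene CG16704 read 5.82 and 5.76 in controls against 7.97 and 7.42 with PFJ, a 3.75-fold difference. CG16713, of the same family, read 3.87 and 4.08 against 5.57 and 5.44. In the chromosome order of RefSeq, 3 protein-coding genes lie between CG16704 and CG16713. CG42717, also Kunitz-type, read 3.71 and 3.29 in controls against 4.93 and 5.91 with PFJ, so its PFJ arrays were 0.97 apart. Cystatins block cysteine proteases instead, and a pair of cystatin-like genes were in the set. CG15369 read 5.60 and 6.09 against 7.45 and 7.22. CG31313 read 4.47 and 3.32 against 5.28 and 5.50, and its controls differed by 1.15.

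Other Kunitz-type genes did not share this pattern throughout. Of 18 measured genes listed for that family, 3 belonged to the set, and the list may miss others. In 7 of the 18 the groups did not overlap and PFJ was higher, where 15.5% of all genes have that pattern. In 0 of the 18 did the groups separate with PFJ lower, against 13.1% of all genes. The median difference of the listed genes was 0.33 and the range ran from -0.14 to 1.92, against a median of 0.01 over all genes. IM33, which encodes a Kunitz-type immune-induced peptide, had a difference of 1.60 but a gap of 0.22, with controls at 8.57 and 6.14 and PFJ arrays at 8.79 and 9.12. The low array for IM33 was control replicate 2 alone. CG10031 fell just short of the set with a gap of 0.45, and CG2816, CG42716, CG3604 and CG15418 had differences between -0.14 and -0.11.

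Serine proteases and serine protease homologs were recognised from RefSeq synonyms of the form SP or SPH with a number. Such a synonym was carried by 7 of the 71 genes that matched RefSeq, or 9.86%, and by 3.24% of all matched CG-numbered genes. Homologs keep the protease fold but lack an active catalytic site. CG18563 read 5.58 and 5.42 in controls against 7.40 and 6.43 with PFJ. CG1773 read 5.48 and 5.86 against 6.70 and 6.63. CG8586 read 4.51 and 4.21 against 5.25 and 5.23. In all 3 the groups were apart by over 0.7, and in CG8586 and CG1773 the PFJ arrays were within 0.07 of each other. CG3505, which carries a synonym for a prophenoloxidase-activating enzyme, differed by 0.72 (SE 0.18). The remaining genes of this kind, CG31266, CG31267 and CG33127, had means over the 4 arrays of 3.74, 4.35 and 3.52. They were higher in PFJ replicate 2 than in PFJ replicate 1 by 0.53, 0.70 and 1.24.

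Those 3 genes belong to a wider list of 67 measured trypsin-like protease genes, many of them digestive. In 25 of the 67 the groups separated with PFJ higher and in 7 with PFJ lower, against 15.5% and 13.1% of all genes, and the median difference was 0.16. A list of 14 midgut markers, which have names of their own and so could not enter the set, averaged 4.60 and 5.85 on the control arrays, against 5.30 and 6.24 with PFJ. It was thus higher in the second array of each group, and in 4 of its genes the groups separated with PFJ higher, against 15.5% of all genes. LManV, a lysosomal mannosidase gene and the marker that passed the gap of 0.5, read 3.87 and 3.62 in controls against 4.97 and 7.37. PFJ replicate 2 was the highest array for the midgut list as for CG31266, CG31267 and CG33127, but in CG31266 and CG31267 control replicate 2 was below control replicate 1, unlike the midgut list. Whether midgut RNA had a part in the values of these genes was not tested.

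Oxidoreductases were the largest group with an assigned role, at 9 genes, with differences between 0.75 and 2.32. The size of a group depends on how the roles were drawn. Short-chain dehydrogenases and reductases use NAD or NADP to reduce or oxidise sugars, steroids and retinoids. CG2070, of this family, had the third widest gap, at 3.45 and 3.94 in controls against 5.59 and 6.44 with PFJ. Both controls were dim, so the size of that difference is uncertain too. CG2065, the next gene on the chromosome and of the same family, read 3.29 and 3.19 against 3.89 and 4.86. Both were highest in PFJ replicate 2. CG10962 was brighter, at 7.54 and 7.30 against 8.12 and 8.49. CG7322, of the xylulose reductase type, differed by 1.14 (SE 0.23), and CG12116, of the sepiapterin reductase type, by 0.75 (SE 0.18). Of 31 measured genes in the short-chain dehydrogenase list, which leaves out CG7322 and CG12116, 3 were in the set and 10 had separated groups with PFJ higher, against 15.5% of all genes, and the list median was 0.12.

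Aldo-keto reductases, which reduce aldehydes and sugars, were represented by CG3397. It read 5.26 and 5.62 in controls against 6.94 and 7.05 with PFJ, a 2.93-fold difference. The 7 other measured genes listed for the family had gaps of 0.11 or less, and their median difference together with CG3397 was 0.17. CG6870, a cytochrome b5-type gene whose product carries electrons, read 4.41 and 5.04 against 6.37 and 6.58. The aldehyde dehydrogenase gene CG31075 differed by 1.12 (SE 0.26), and CG1236, of the glyoxylate and hydroxypyruvate reductase type, by 1.02 (SE 0.19).

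Other metabolic genes came from amino acid and one-carbon pathways. CG6415, the aminomethyltransferase of glycine cleavage, read 4.23 and 3.52 in controls against 5.01 and 5.84 with PFJ. CG10621, a homocysteine S-methyltransferase gene, read 6.19 and 5.91 against 6.96 and 7.66. Both had their highest value in PFJ replicate 2 and their lowest in control replicate 2. The carbohydrate kinase gene CG11594 differed by 0.92 (SE 0.23), and the acyl-CoA thioesterase gene CG1774 by 0.74 (SE 0.19).

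Transport and carrier genes had smaller differences, between 0.69 and 1.37. CG1208, of the sugar transporter type, read 3.29 and 3.21 against 4.12 and 5.10. Of 36 listed sugar and organic anion transporter genes measured, it alone was in the set. By the same gap, 1.01% of all genes were higher with PFJ. In 7 of the 36 the groups separated with PFJ higher and in 4 with PFJ lower, against 15.5% and 13.1% of all genes. The median of that list was 0.04. CG11854, a takeout-like gene of a family that binds small hydrophobic molecules, read 6.97 and 6.47 against 8.55 and 7.63. It was the only set member among 12 measured genes listed for its family, again beside a share of 1.01% of all genes. CG5958, CG10026 and CG31636, which encode CRAL-TRIO proteins that carry lipophilic molecules, differed by 0.81, 0.80 and 0.69. Their levels differed widely, with means over the 4 arrays of 7.63, 3.59 and 4.07 in the same order. CG9981, of the lipid-flipping P4-ATPase type, differed by 0.92 (SE 0.31).

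**Figure D3:**
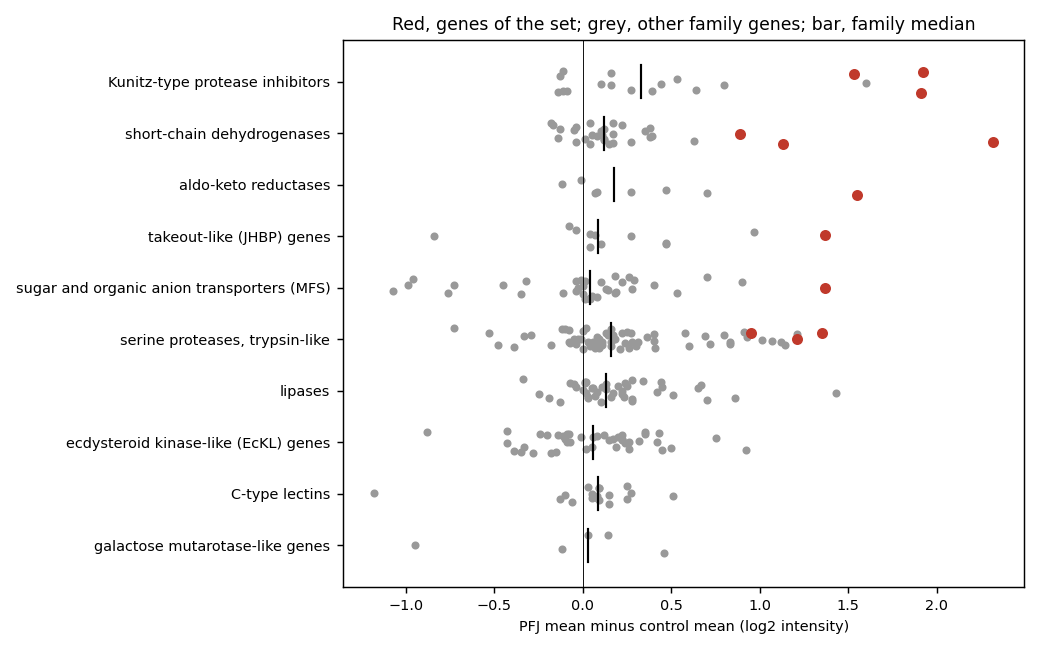
Each point is a measured gene of a family list, placed by its PFJ mean minus its control mean in log2 intensity, with genes of the set in red and a bar at the family median. Kunitz-type inhibitors have the highest median, 0.33, and the lipase, ecdysteroid kinase-like, C-type lectin and galactose mutarotase-like lists hold 0 genes of the set.

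Some family lists, none of which is complete, held no gene of the set. Genes of these families that the lists miss may still be in it. No gene among 43 measured lipases, 43 ecdysteroid kinase-like genes, 18 C-type lectins and 5 galactose mutarotase-like genes passed the gap with PFJ higher, where 1.01% of all genes did, so lists of these sizes would hold few or none at that share. Ecdysteroid kinase-like genes, a detoxification-linked family, had a median difference of 0.06, with groups separated and PFJ higher in 11 and lower in 6. The lipases had separated groups with PFJ higher in 14 genes and lower in 1, with a median of 0.13. Over all genes these shares are 15.5% and 13.1%.

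Some values rested mainly on 1 array. PFJ arrays were over 1 apart in 6 of the 72 genes. CG10081, an M28-type metallopeptidase gene, read 2.72 and 2.51 in controls, 3.76 in PFJ replicate 1 and 7.14 in PFJ replicate 2. Its mean difference was 2.83 (SE 1.21), and without PFJ replicate 2 it was 1.14. PFJ replicate 2 was also over 1 above PFJ replicate 1 in CG40198, CG33127, CG31343 and CG9616, of which CG31343 encodes an M1-type aminopeptidase. In CG5697 PFJ replicate 1 was the high array, at 6.54 against 5.27. Control arrays were over 1 apart in CG17105, CG34227 and CG31313, each time with control replicate 2 lower.

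Within groups, the set leaned towards control replicate 1 and PFJ replicate 2. PFJ replicate 2 exceeded PFJ replicate 1 in 42 of 72 genes, or 58.3%, against 40.7% of all CG-numbered genes. Control replicate 1 exceeded control replicate 2 in 46 genes, or 63.9%, against 52.7%. The combination of both, in which control replicate 1 and PFJ replicate 2 were the higher arrays of their groups, held for 27 genes, or 37.5%, against 16.3%. Control replicate 2 stood apart from the other arrays in testis genes, whose list of 9 averaged 5.85 and 2.88 on the control arrays, against 5.53 and 4.45 with PFJ. None of those testis genes had separated groups. In muscle genes, 6 of them, the averages were 8.08 and 6.69 against 7.56 and 8.41, and again 0 had separated groups. The hemocyte list of 10 averaged 4.31 and 4.72 against 4.48 and 4.93, with 5 genes separated and higher with PFJ, against 15.5% of all genes. PPO1, a prophenoloxidase gene, passed the gap of 0.5 among them, at 3.82 and 4.06 against 4.87 and 5.53. The median difference of the hemocyte list was 0.15, and NimC1 and crq each differed by -0.67 with overlapping groups. Of 5 measured cuticle and epidermis genes, whose list averaged 4.47 and 4.23 against 4.88 and 4.77, 3 were separated and higher, and 2 passed the gap, Cpr67B and TwdlX. The part of these tissues in the values of the 72 genes was not tested.

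The set averaged above all CG-numbered genes on the control arrays too, with means of 5.08 and 4.96 against 4.05 and 3.85. On the PFJ arrays, which the rule required to be high, the means were 6.16 and 6.38 against 4.02 and 3.98. The mean level over the 4 arrays, which holds those PFJ values, had a median of 5.50 in the set, against 3.57 for all CG-numbered genes, and 81.9% of the 72 genes lay above the median of all genes, against 40.3%. Levels under 4 were found in 13 of the 72 genes and in 59.7% of CG-numbered genes. The dimmest of the set were CG42587 and CG4210, with means of 3.03 and 3.08, and no detection call against background was made.

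Some of the genes lay side by side. Of the 71 genes placed in RefSeq, 9, or 12.7%, had another gene of the set nearby, with no more than 2 protein-coding genes in between. Among all placed CG-numbered genes, 3.51% had a gene of the set that near. They formed 4 groups of directly adjacent genes. The group of 3 held CG7924, CG34244 and CG7906. CG7924 read 5.20 and 5.65 in controls against 6.53 and 6.82 with PFJ, and CG7906 read 8.29 and 7.85 against 8.84 and 9.50. Their measured neighbours were not separated upwards. CG7768, next to CG7924, was low in control replicate 2 alone, at 8.76 and 5.03 in controls against 8.46 and 7.40. CG13482, beyond CG7906 on the other side, read 11.32 in both controls against 10.87 and 10.79.

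The pairs were CG2070 with CG2065, CG8157 with CG8160, and CG31266 with CG31267. CG8157 read 3.51 and 3.48 in controls against 4.82 and 5.58 with PFJ, and CG8160 read 4.00 and 3.62 against 4.70 and 5.61. In both the PFJ replicate 2 array was the highest. Rdh1, a retinol dehydrogenase gene next to CG2065, read 3.13 and 3.21 against 2.97 and 3.34, with overlapping groups. Around CG31266 and CG31267 lie further trypsin-like genes, and 4 of the 6 genes drawn beside them had separated groups with PFJ higher, by less than the threshold, against 15.5% of all genes. Among them CG17475 read 3.99 and 3.03 against 4.06 and 5.37, a gap of 0.07. CG5246 overlapped between groups, at 4.60 and 6.76 against 6.21 and 6.96, and its array order matched that of the midgut list.

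**Figure D4:**
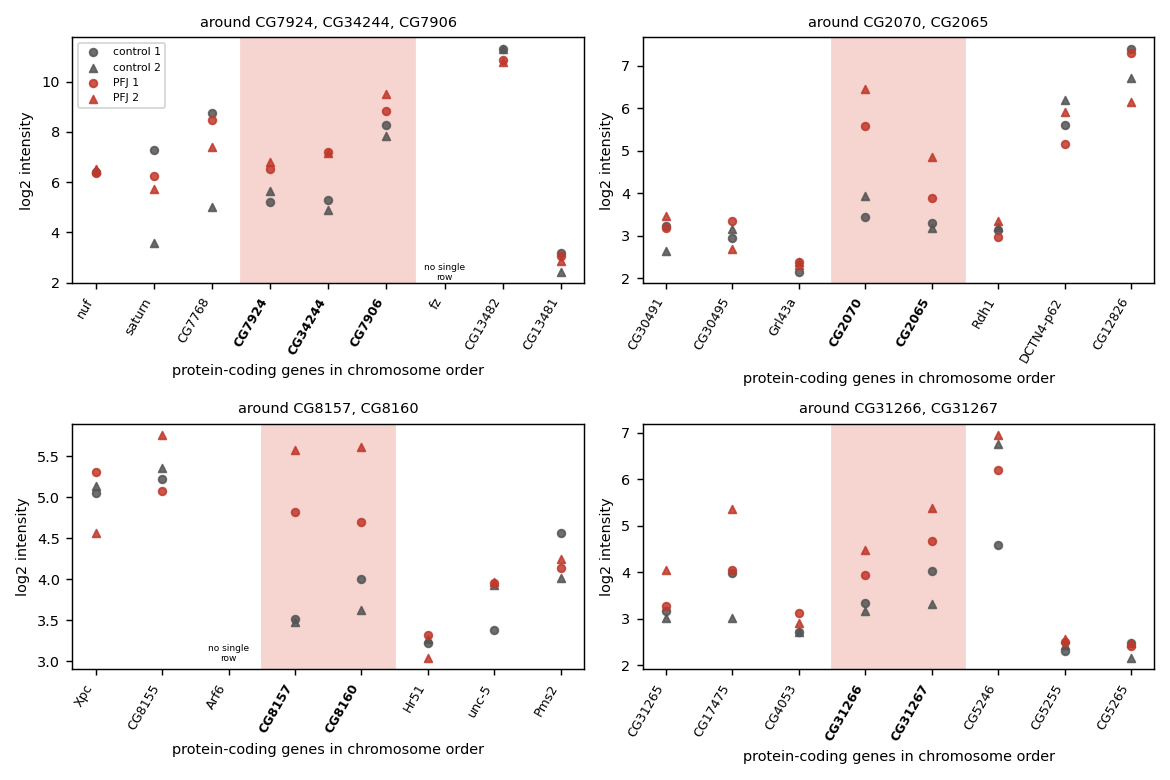
The 4 panels show log2 intensity on the y axis for protein-coding genes in RefSeq order along the chromosome around each group of adjacent genes of the set, which are shaded and in bold, with controls in grey and PFJ in red. Within the shading all PFJ points lie above the control points, while most flanking genes have overlapping groups except beside CG31266 and CG31267, and fz and Arf6 have no row under a single symbol.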

How the data were processed

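Arrays of 2 control and 2 PFJ pools were analysed. The authors deposited log2 intensities, produced by RMA in Affymetrix Expression Console, version 1.4.0.38, per the submitters' processing notes. RMA equalises the arrays' distributions and so hides a change common to most genes. The values themselves showed the scale to be log2, and column medians lay between 3.93 and 4.09. The genome build is not given in the sources used here, and coordinates are left out. Precision is limited by the number of arrays.

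The platform annotation gave 1 gene symbol for 13441 of 16322 rows and several for 555, and it did not list 2326. For 37 genes with several rows the brightest was kept. Gene order and synonyms came from RefSeq's Release 6 plus ISO1 MT assembly, where 71 of the 72 genes and 5586 of 5733 CG-numbered genes matched by gene identifier.

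All genes were fitted with limma 3.58.1 in R 4.3.3 (lmFit, eBayes, no covariate, Benjamini-Hochberg adjustment), and the SEs are its moderated ones. The code was tested on simulated data. The members and lists were chosen with earlier results of these data known, and role groups after the values were seen. Named genes were the 20 with the widest gap, the brightest 3, those at the threshold, those in a family list or beside another gene of the set, and genes named earlier in these data. Alternatives were repeated quantile normalisation, median centring, filters on dim genes at means of 4 and 5, other gaps, leaving out each array, a replicate block and an intensity trend.

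Replicate pools are separate pools by label, but nothing states separate cultures, so errors measure only the spread between these samples.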

Additional observations from a re-analysis of the deposited data

Results flagged for a closer look

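Rows outside the main comparison also had PFJ arrays clear of both control arrays. By the gap of 0.5, 8 of 555 rows with several gene symbols were higher with PFJ, or 1.44%, and 11 were lower, or 1.98%. Among the 2326 rows that the annotation table does not list, 39 were higher, or 1.68%, and 34 lower, or 1.46%. Of genes with 1 symbol, 1.01% were higher and 0.41% lower by the same gap. Each of those genes was counted once, while all of the other rows were counted. Some of the rows not listed had the same values as each other on every array. These differences in share were not tested, and the rows are not named here.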

How the results depend on the processing

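The count of 72 genes was 67 with quantile normalisation repeated (61 of them in the set) and 64 with median centring (62 in the set), and 59 with a mean level of at least 4. It was 40 with a mean of at least 5, 191 at a gap of 0.25 and 16 at a gap of 1. Adding the rows with several symbols or none gave 119, a setting chosen after seeing the data. That total includes rows without a CG number as their only symbol, so it is not a count of CG-numbered genes. Leaving out 1 array gave 171 to 573 genes, since fewer arrays need to be clear of each other; the count was 573 and 171 without control replicates 1 and 2, and 241 and 223 when PFJ replicates 1 and 2 were left out. The same settings gave 355 to 1064 genes of any name against 135 (1064 and 355 without control replicates 1 and 2, 510 and 544 when PFJ replicates 1 and 2 were left out), and 79 with a mean of at least 5.

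The median difference of the set ran from 1.01 to 1.25 over all settings. With 1 array left out, the rule keeps each difference at 0.5 or more, so that part of the range is bounded in advance. Differences were recomputed for 34 of the genes in the text, those the naming rule took. The rule fixes their sign when an array is left out or a block is added, so that this shows nothing about stability. With the scalings changed, 1 moved by more than the replicate SD, CG18666 at 0.51 with quantile normalisation repeated. Limma called 0 genes at an adjusted p under 0.05 in each of 10 other settings. A group left with 1 array is assumed to vary like the other group, which alone gives the spread. The unadjusted count of 373 was 304 to 945 with 1 array left out, the highest being 945 without control replicate 1, with 566 when PFJ replicate 2 was left out, and 192 and 142 with the filters at 4 and 5, which test fewer genes. With the replicate number as a block it was 547, and the adjusted count was 0. The same-numbered arrays deviated together across genes (r = 0.337), and with 2 pairs this does not show that the numbers pair the pools. Protein and promoter features were not run, since no sequence table was used here. Signal near background limits the 13 genes with means under 4.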
